A study of Mus musculus with 10 samples.

Results

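The genes described here are the ion exchangers, cation-chloride cotransporters, aquaporins and carbonic anhydrases of the mouse. They were taken by name from the annotation of the array: every non-control probe whose gene name belongs to the Slc4a, Slc9a, Slc12a or Slc26a families, to the aquaporins (Aqp) or to the carbonic anhydrases (Car) was a member. This gave 66 genes, measured by 129 probes, among 25160 named genes and 56605 probes. The Slc4a family contributed 10 genes, Slc9a 9, Slc12a 9, Slc26a 11, the aquaporins 11 and the carbonic anhydrases 16. The rule uses names and no measured value, but the gene families were picked with earlier results of these data known.

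The colon takes up salt and water and secretes bicarbonate. At the apical face of the surface cells, sodium-proton exchangers of the Slc9a family work in parallel with chloride-bicarbonate exchangers of the Slc26a family, and carbonic anhydrases supply the protons and bicarbonate that both exchange. Water follows through aquaporins, while Slc4a and Slc12a transporters in the basolateral membrane move bicarbonate, potassium and chloride between the cell and the blood side.

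Expression was measured on 10 Agilent arrays of the 2-colour type, on which a pair of RNA samples labelled with Cy3 and Cy5 compete for the same probes. In the tissue experiment, colon was taken 2 months after dextran sodium sulfate (DSS, 2% in the drinking water for 5 to 7 days), an agent that injures the colon lining. The mice were males of a cross between Axin2CreERT2 and Trp53 fl/fl animals given tamoxifen by injection. They were 2 mice labelled KO and 2 labelled WT, and each pair of mice was hybridised in both dye orientations. Axin2 drives this Cre recombinase in Axin2-expressing cells, so the deletion was not aimed at every cell of the organ. The labels do not say whether the WT mice carried the Cre or the floxed alleles.

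In the organoid experiment, cultures of colon crypts came from VillinCreERT2 x Trp53fl/fl mice. Villin drives this Cre recombinase in intestinal epithelium. Trp53 KO cultures were made with 800 nM 4OH-tamoxifen for 2 days and then selected with the MDM2 inhibitor Nutlin-3A, which depletes cells with working p53. WT and KO organoids grew in full medium with 0.328 nM surrogate Wnt, 3 µM of the GSK3 inhibitor CHIR-99021, 25% R-spondin 1 conditioned medium, 100 ng/ml noggin, 50 ng/ml EGF and 0.5 µM A83-01. The KOWI group, labelled as Wnt-independent, consisted of KO organoids in the same medium without surrogate Wnt and CHIR-99021. Each of the 3 groups had 2 samples, and 6 arrays joined them in a closed loop. The labels do not say whether these samples came from separate mice or from separate cultures, so p-values measure only the spread between samples, which may be technical. In this loop replicate 1 of each group carried Cy3 and replicate 2 carried Cy5, and the dye and the replicate number cannot be told apart. In KOWI organoids, the absent Wnt signal and whatever adaptation or selection the culture went through cannot be told apart either.

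Between 44.6% and 59.1% of the spots of a channel were well above background. The 4 arrays with a KOWI sample had 13.9% to 16.3% outlier spots by the scanner software's own marks, against 1.27% to 5.12% on the other arrays. The Trp53 probe had a log2 KO over WT ratio of -0.21 in tissue (SE 0.17, limma adjusted p = 0.614), with -0.46 in mouse pair 1 and 0.04 in pair 2, and of -0.83 in organoids (SE 0.19, adjusted p = 0.587). Whether this probe lies in the deleted exons is not given in the sources used here, so these ratios are no check of the knockout labels.

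Testing needed a probe whose signal cleared background throughout 1 or more groups, on both dyes, and whose spots were not marked as outliers. In tissue 42 of the 66 members were tested, 20 were below background and 4 (Aqp6, Slc12a7, Slc12a9 and Slc9a2) were lost to outlier spots. In organoids 37 were tested, 19 were below background and 10 (Aqp2, Aqp3, Aqp6, Aqp7, Car7, Slc12a2, Slc4a2, Slc9a5, Slc9a7 and Slc9a9) were lost to outlier spots. Of the 37, 28 had all 6 arrays and 9 had 1 array left out, and these 9 included Aqp4, Slc26a2, Slc26a3 and Slc9a2. In all, 48 members were tested in at least 1 experiment and 31 in both, and 15 were below background in both, among them Slc4a1, the anion exchanger of red cells, and the renal cotransporters Slc12a1 and Slc12a3.

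Members differed most between KOWI and WT organoids. Of the 37 tested, 9 passed the threshold (24.3%, limma with Benjamini-Hochberg adjustment over all genes, adjusted p under 0.05), where 5.39% of all 11340 genes tested did. Aqp4 (16.8-fold), Aqp8 (13.7-fold), Slc9a3 (12.5-fold), Slc26a2, Car4 and Slc9a2 fell, which is 6 members where 2.04% of all genes were called lower. Slc12a4, Aqp5 (3.10-fold) and Aqp9 (4.65-fold) rose, which is 3 members where 3.35% of all genes were called higher. Some members could be tested only through the groups in which they were high: Aqp5 and Aqp9 through KOWI, and Car4 through WT and KO. With signal above background required in every group 4 of 30 members were called (Aqp4, Aqp8 and Slc9a3 lower, Slc12a4 higher), beside 411 of 9776 genes. The median absolute log2 ratio was 0.81 over the members and 0.25 over all genes tested. With the outlier spots kept, 47 members could be tested and 0 were called, alongside 6 of 14747 genes. The ratios of Aqp8, Slc9a3, Aqp9, Aqp5, Car4 and Slc12a4, which had no array left out, were the same in that fit, with adjusted p-values between 0.0704 and 0.118, while Aqp4 had -3.50 and Slc9a2 -0.93. Leaving out KOWI replicate 2 also left 0 members called, although the 9 ratios kept their direction in each of the 12 to 16 alternatives in which they could be computed.

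**Figure D1:**
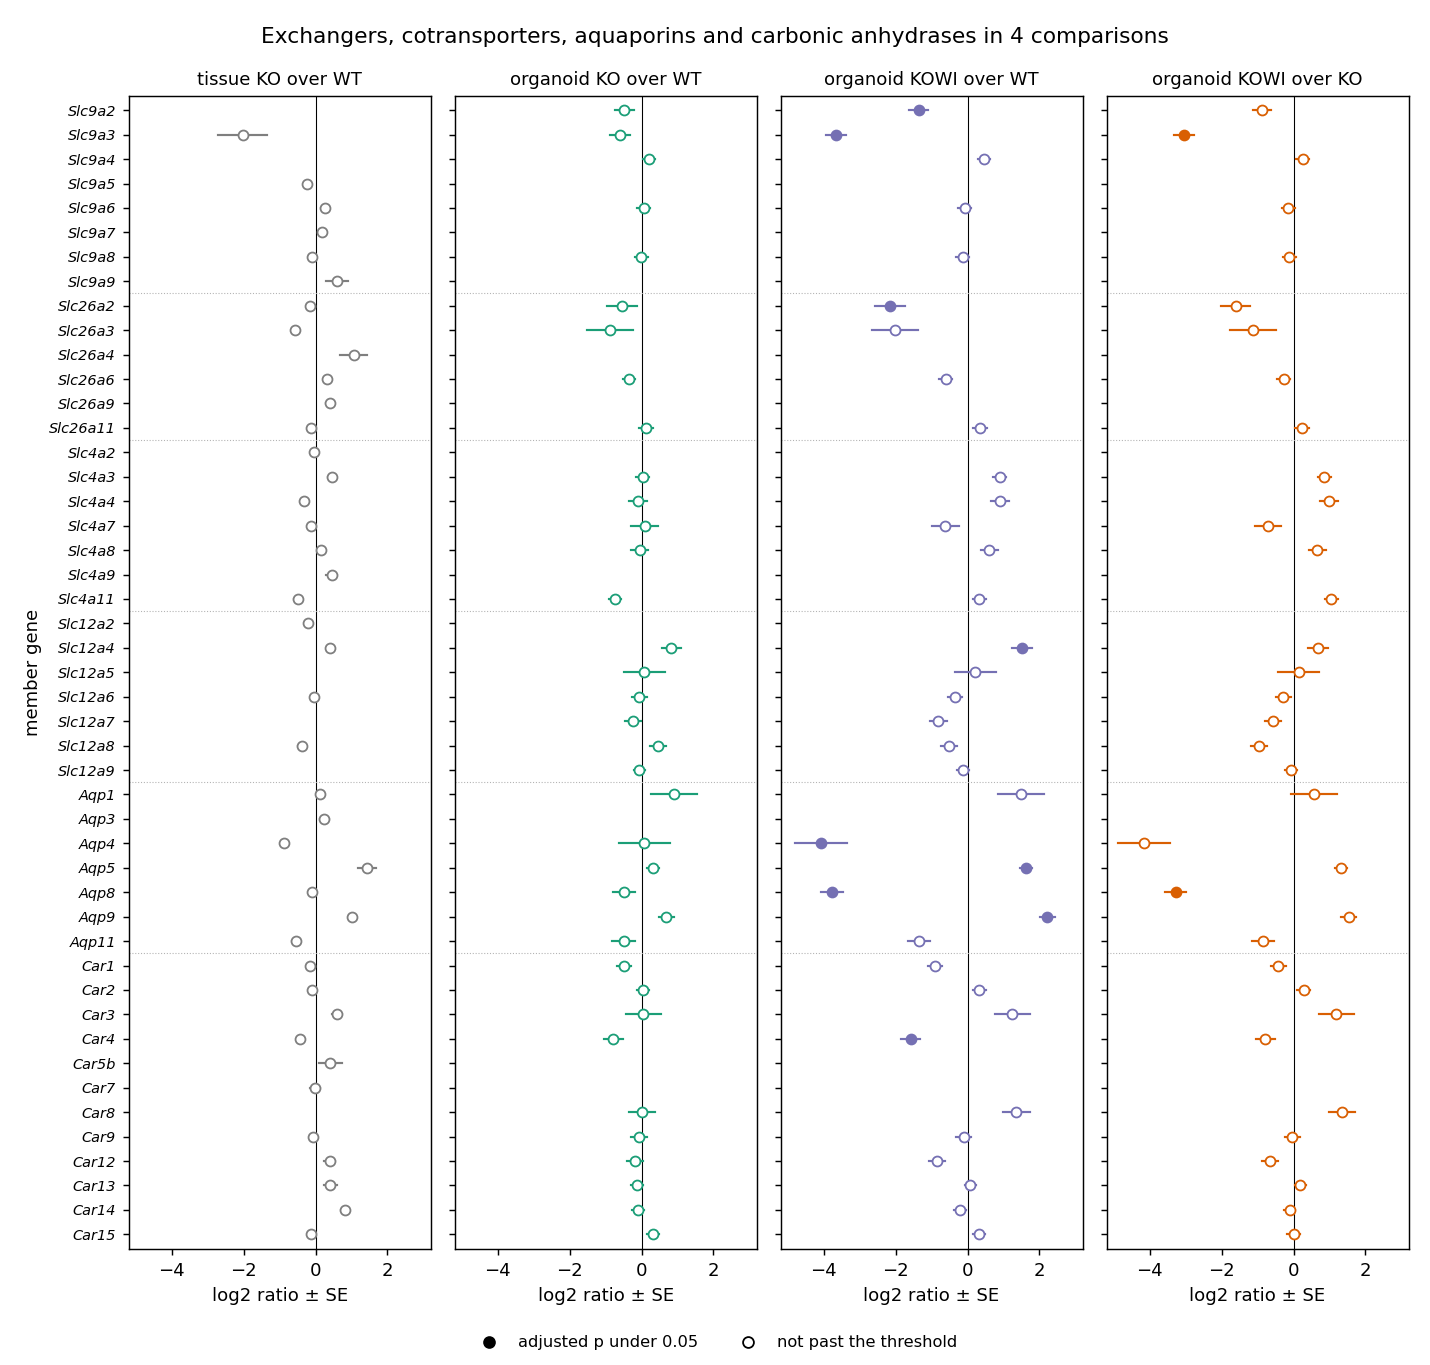
Log2 ratio with its standard error (x axis) of the tested members (y axis, grouped by family) in the 4 comparisons, with filled points for an adjusted p under 0.05. The filled points are the 9 members called between KOWI and WT organoids and the 2, Slc9a3 and Aqp8, called between KOWI and KO.

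The sodium-proton exchanger Slc9a3 (NHE3), which carries sodium into surface colonocytes, had log2 levels of 1.47 and 1.36 in the WT samples, 0.44 and 1.19 in KO and -2.09 and -2.37 in KOWI, each relative to the mean of the 6 organoid samples. Both KOWI samples lay far below all 4 others, and the KO and WT values did not overlap. How many of all genes separate like this with 2 samples per group was not counted, here or below. The KOWI over WT difference was a 12.5-fold fall (log2 -3.65, SE 0.28, limma adjusted p = 0.0106). Slc9a2, another apical sodium-proton exchanger, had levels of 0.77 and 0.46 in WT, -0.06 and 0.33 in KO and -0.46 and -1.03 in KOWI. The 3 groups did not overlap, and Slc9a2 fell 2.57-fold between WT and KOWI (log2 -1.36, SE 0.26, adjusted p = 0.0493), with 1 array left out. A dimmer Slc9a2 probe gave -0.51, and the mean of the gene's probes gave -0.93 (limma adjusted p = 0.0906).

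Among the anion exchangers of the Slc26a family, the sulfate transporter Slc26a2 had levels of 0.83 and 0.98 in WT, 0.45 and 0.26 in KO and -0.48 and -2.03 in KOWI. The KOWI samples were the lowest and differed from each other by more than WT and KO did. Slc26a2 fell 4.47-fold (log2 -2.16, SE 0.41, adjusted p = 0.0486) by its brightest probe with 1 array left out, while a dimmer probe gave -0.69 (SE 0.26, adjusted p = 0.178). Without KOWI replicate 2 its ratio was -1.40 (adjusted p = 0.101). Slc26a3 (DRA), the apical chloride-bicarbonate exchanger, had levels of -0.06 and 1.98 in WT, 0.50 and -0.33 in KO and -1.60 and -0.50 in KOWI. The WT samples spread as widely as the groups differed, and its ratio of -2.01 (SE 0.64), with 1 array left out, did not pass (adjusted p = 0.145). With outlier spots kept the same probe gave -1.13. A brighter Slc26a3 probe, the one used in tissue, had outlier spots on 3 organoid arrays and gave -1.31 with them kept. Slc26a6, another apical anion exchanger, had a ratio of -0.61 (SE 0.18, adjusted p = 0.115).

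The aquaporins held both the lowest and the highest ratios of all members. The water channel Aqp8, an apical protein of absorptive colonocytes in rodents, had levels of 1.34 and 1.50 in WT, 0.80 and 1.06 in KO and -1.93 and -2.78 in KOWI. The 3 groups did not overlap, and Aqp8 fell 13.7-fold between WT and KOWI (log2 -3.78, SE 0.30, adjusted p = 0.0114). Aqp4, a basolateral water channel, had levels of 1.42 and 1.24 in WT, 0.64 and 2.19 in KO and -1.87 and -3.62 in KOWI. KO and WT overlapped, whereas both KOWI samples were lower, and Aqp4 fell 16.8-fold (log2 -4.07, SE 0.72, adjusted p = 0.0419) with 1 array left out. Without KOWI replicate 2 the ratio was -2.85 (adjusted p = 0.0946), and over the settings tried it lay between -4.26 and -2.61. A dimmer Aqp4 probe gave a ratio of -1.14.

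Aqp9, an aquaglyceroporin that passes glycerol and urea as well as water, had levels of -0.63 and -1.30 in WT, -0.09 and -0.47 in KO and 1.25 in both KOWI samples. The groups did not overlap, and Aqp9 rose 4.65-fold (log2 2.22, SE 0.21, adjusted p = 0.0178). A dimmer Aqp9 probe had outlier spots on 2 arrays. With those spots kept it went the other way, with KOWI at -0.34 over WT and -0.49 over KO. Aqp5, the water channel of salivary and sweat gland cells, had levels of -0.56 and -0.74 in WT, -0.18 and -0.48 in KO and 0.97 and 1.00 in KOWI. It rose 3.10-fold (log2 1.63, SE 0.17, adjusted p = 0.0183), and KOWI stood apart from both other groups. Both probes were dim in WT organoids: only 1 of 4 WT channels was well above background for Aqp9 and 2 of 4 for Aqp5, against 4 of 4 in KOWI, so these folds rest on WT signals near background and on a filter that they passed through KOWI alone. In the authors' value table the ratios were 3.98 for Aqp9 and 2.78 for Aqp5. Aqp1, a water channel of endothelium and red cells, was at 1.49 in KOWI replicate 2 but at -0.12 in replicate 1, and its ratio of 1.48 (SE 0.64) did not pass (adjusted p = 0.247).

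**Figure D2:**
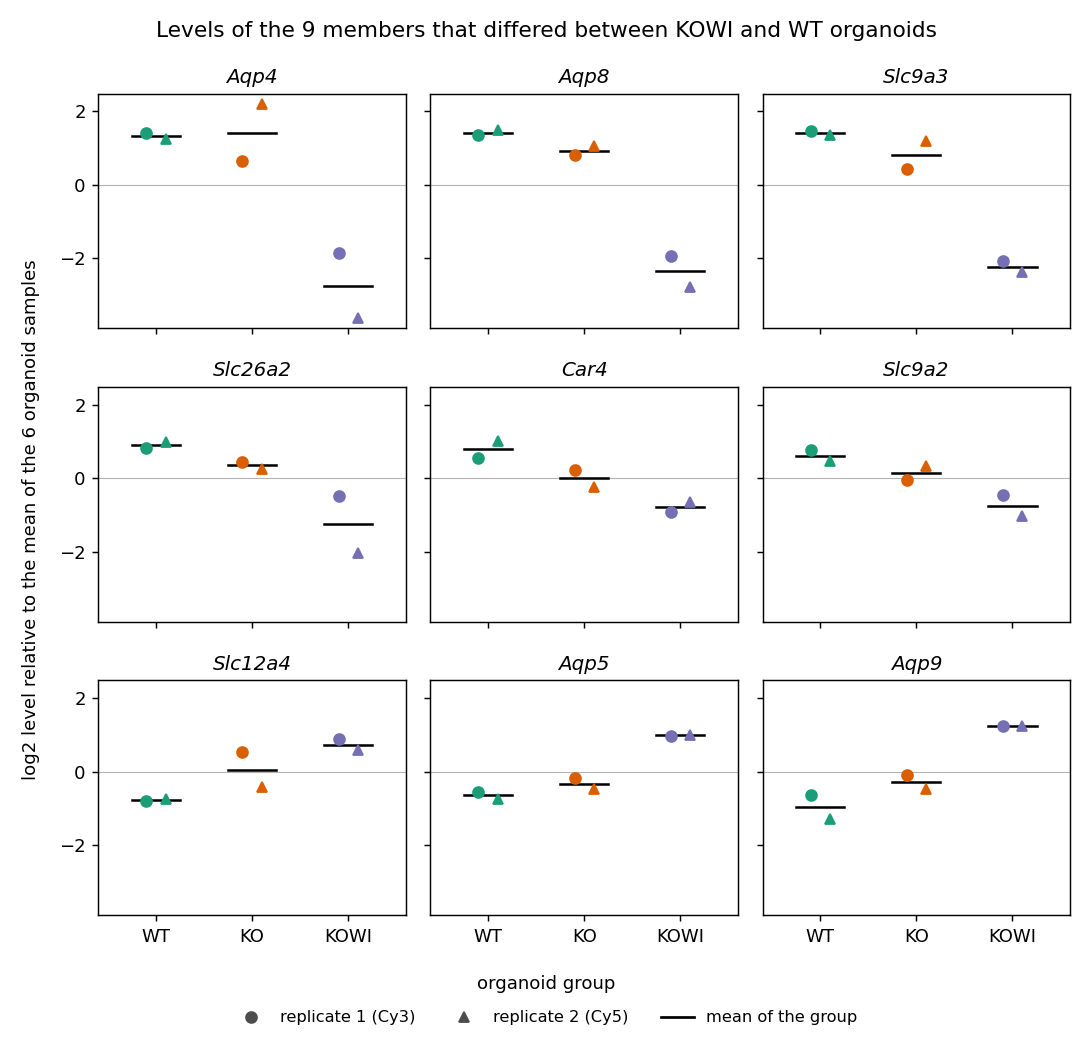
Log2 level relative to the mean of the 6 organoid samples (y axis) of the 9 members called between KOWI and WT organoids, by group (x axis), with a circle for replicate 1, a triangle for replicate 2 and a bar for the group mean. In KOWI, Aqp8 is at -1.93 and -2.78 and Slc9a3 at -2.09 and -2.37, below all WT and KO samples, while Aqp9 is at 1.25 in both.

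The promoter windows below are shown because these genes had the lowest (Aqp8, Slc9a3) and highest (Aqp9, Aqp5) ratios among the called members with an entry in the RefSeq table. Each is the 250 bases before the gene's start (build GRCm38.p6), 5′ to 3′ on the gene's strand. Capitals mark matches, on either strand, to 5 short motifs: CATAAA (CDX-type), CAAAGNNCA (HNF4-type), ATCAAAG (TCF/LEF), TGANTCA (AP-1) and CATTCC (TEAD-type). Aqp8 lies at chr7:123462044-123462293 (plus strand), Slc9a3 at chr13:74121163-74121412 (plus), the Aqp9 start shown at chr9:71162634-71162883 (minus) and Aqp5 at chr15:99590778-99591027 (plus).
Aqp8: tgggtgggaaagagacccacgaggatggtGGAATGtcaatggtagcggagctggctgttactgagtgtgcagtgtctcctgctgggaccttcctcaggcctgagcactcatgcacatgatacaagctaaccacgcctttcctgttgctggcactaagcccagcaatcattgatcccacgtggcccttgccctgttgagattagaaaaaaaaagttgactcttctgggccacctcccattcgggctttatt
Slc9a3: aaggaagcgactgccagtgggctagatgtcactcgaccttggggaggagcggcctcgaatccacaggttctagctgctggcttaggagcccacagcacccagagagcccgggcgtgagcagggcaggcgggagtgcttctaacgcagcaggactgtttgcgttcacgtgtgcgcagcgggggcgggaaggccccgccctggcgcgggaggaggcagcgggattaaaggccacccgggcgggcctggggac
Aqp9: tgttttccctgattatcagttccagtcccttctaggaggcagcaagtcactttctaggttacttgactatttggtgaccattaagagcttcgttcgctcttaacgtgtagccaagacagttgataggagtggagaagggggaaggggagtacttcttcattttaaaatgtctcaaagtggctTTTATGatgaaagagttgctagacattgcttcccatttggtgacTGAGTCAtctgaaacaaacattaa
Aqp5: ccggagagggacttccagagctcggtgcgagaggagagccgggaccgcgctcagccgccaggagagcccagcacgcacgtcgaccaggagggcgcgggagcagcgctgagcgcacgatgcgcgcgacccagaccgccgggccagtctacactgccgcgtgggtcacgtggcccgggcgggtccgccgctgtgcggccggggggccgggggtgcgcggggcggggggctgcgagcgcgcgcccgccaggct
The windows differed in base composition: GC made up 52.4% of Aqp8, 67.6% of Slc9a3, 41.6% of this Aqp9 window and 78.4% of Aqp5, beside a median of 52.4% over all 32851 windows. Aqp8 held 1 TEAD-type match, a motif present in 12.6% of all windows. The Aqp9 window held 1 CDX-type match (10.8% of all windows) and 1 AP-1 match (6.75%), which did not overlap, and its other RefSeq start held none. Slc9a3 and Aqp5 held none of the 5 motifs, and neither the HNF4-type (5.49%) nor the TCF/LEF motif (3.21%) was in any window of the 6 called members with an entry.

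Among the carbonic anhydrases, which convert carbon dioxide and water to bicarbonate and protons, only the membrane-anchored Car4 passed in KOWI over WT. Its levels were 0.55 and 1.02 in WT, 0.23 and -0.23 in KO and -0.93 and -0.65 in KOWI. The 3 groups did not overlap, and Car4 fell 2.98-fold (log2 -1.58, SE 0.26, adjusted p = 0.0361). Its probe was above background in 3 of 4 KOWI channels, against 4 of 4 in WT and in KO. It was thus testable only through the groups in which it was high. The cytosolic Car1 was at 0.49 and 0.44 in WT, -0.07 and 0.02 in KO and -0.69 and -0.19 in KOWI, also without overlap, but its ratio of -0.91 (SE 0.20) did not pass (adjusted p = 0.0645). The cytosolic Car2 had a ratio of 0.32 (SE 0.18) and the membrane enzymes Car9 and Car12 had -0.11 (SE 0.21) and -0.85 (SE 0.22, adjusted p = 0.0918). Car3, an enzyme abundant in muscle and fat, was at 1.75 in KOWI replicate 2 and between -0.46 and -0.13 in the other 5 samples, so its ratio of 1.24 (SE 0.49, adjusted p = 0.212) came from 1 sample.

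Of the cotransporters that move chloride with potassium or sodium, Slc12a4 (KCC1), a potassium-chloride cotransporter found in most tissues, was at -0.80 and -0.76 in WT, 0.53 and -0.43 in KO and 0.89 and 0.58 in KOWI. Both WT samples were below the others, and Slc12a4 rose 2.86-fold between WT and KOWI (log2 1.52, SE 0.27, adjusted p = 0.0412). Slc12a7 (KCC4), of the same group of proteins, had a ratio of -0.81 (SE 0.23, adjusted p = 0.108). No Slc4a bicarbonate transporter passed. The basolateral sodium-bicarbonate cotransporter Slc4a4 had 0.89 (SE 0.25, adjusted p = 0.114). Slc4a3, a chloride-bicarbonate exchanger singled out after its values were seen, had 0.90 (SE 0.18, adjusted p = 0.0556). Its probe was above background in 1 of 4 WT and 1 of 4 KO channels and was testable through KOWI alone, and the authors' value table gave 1.76 (adjusted p = 0.0381). With outlier spots kept, the fit called 6 of 14747 genes and 0 of 47 members, among them the 10 that those spots had removed. In it the basolateral chloride loader Slc12a2 (NKCC1) had a KOWI over WT ratio of 0.11, the anion exchanger Slc4a2 -0.29, the aquaglyceroporin Aqp7 -0.50 and the aquaglyceroporin Aqp3 1.48 (SE 0.64, adjusted p = 0.387), with replicate ratios of 0.33 and 2.64 for Aqp3.

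Channels, pumps and regulators that work with these transporters were followed through a list of 37 genes, of which 28 were tested in organoids. In KOWI over WT 3 of the 28 fell and 1 rose, with a median log2 ratio of 0.01 beside 0.02 over all genes. The monocarboxylate transporter Slc5a8 fell by 2.15 on the log2 scale (SE 0.23, limma adjusted p = 0.0183), the guanylin precursor Guca2a by 1.36 (SE 0.18, adjusted p = 0.0247) and the proton-potassium pump subunit Atp12a by 1.05 (SE 0.18, adjusted p = 0.040). The kinase Stk39 (SPAK), which phosphorylates Slc12a cotransporters, rose by 2.11 (SE 0.20, adjusted p = 0.0172). The chloride channel Cftr had a ratio of 0.17. A further 4 genes of the list with low p-values did not pass: the potassium channel Kcnma1 (1.10), the sodium pump subunit Atp1b1 (-1.03), the guanylin receptor Gucy2c (-0.83) and the chloride channel Clcn2 (-1.02).

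Cell type markers also differed between KOWI and WT organoids. A list of 20 colonocyte markers that contains no member had 15 tested genes, of which 8 fell and 0 rose in KOWI over WT (median -1.03). Its summed level on the log2 intensity scale was 19.11 and 18.94 in WT, 18.61 and 18.58 in KO and 17.94 and 18.58 in KOWI. Of 12 goblet cell markers 3 fell (median -0.62), of 7 tested stem cell markers 2 rose (median 0.85), and of 12 general epithelial markers 0 passed (median -0.19). The summed stem cell level was 12.59 and 13.47 in WT, 13.93 and 13.96 in KO and 15.55 and 13.51 in KOWI. KOWI replicate 2 thus lay below both KO samples and near WT replicate 2. The part of these shifts in cell type markers in the members' ratios was not tested. In bulk RNA, fewer cells of a type and less RNA per cell cannot be told apart.

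KOWI organoids were also set against KO organoids, which share the deletion and differ in the medium and its history. Of the 37 members, 2 passed (5.41%), where 0.432% of all 11340 genes did. Aqp8 fell 9.74-fold (log2 -3.28, SE 0.30, limma adjusted p = 0.0311) and Slc9a3 fell 8.27-fold (log2 -3.05, SE 0.28, adjusted p = 0.0311). The log2 ratio of Aqp8 was -2.74 within replicate 1 and -3.83 within replicate 2, and that of Slc9a3 -2.53 and -3.57. With the outlier spots kept, both ratios were the same and the adjusted p was 0.15 for both genes. Neither passed with the scanner software's processed signals, in the authors' value table, without the filter on dim probes, without KO replicate 2 or without KOWI replicate 2, and Slc9a3 also missed without KOWI replicate 1 (adjusted p = 0.0506). The next smallest p-values belonged to Aqp5 (1.31, SE 0.17, adjusted p = 0.0585), Aqp9 (1.53, SE 0.21, adjusted p = 0.0627), Aqp4 (-4.16, SE 0.72, adjusted p = 0.0794), the membrane transporter Slc4a11 (1.05, SE 0.18, adjusted p = 0.0796), Slc4a3 (0.86, SE 0.18, adjusted p = 0.120) and Slc12a8 (-0.97, SE 0.22, adjusted p = 0.133). Of these, Aqp5 and Aqp9 were above background in 3 of 4 KO channels and Slc4a3 in 1 of 4. These genes could be tested only through KOWI, in which they were high. Slc26a2 had -1.61 (SE 0.41), Slc26a3 -1.13 (SE 0.64), Slc9a2 -0.88 (SE 0.26), Car4 -0.79 (SE 0.26) and Slc12a4 0.68 (SE 0.27). Of the 28 tested partner genes, only Slc5a8 passed (log2 -1.99, SE 0.23, adjusted p = 0.0461). Of the markers, 12 of 12 goblet cell genes had negative ratios (median -1.06, 2 of them called), as did 12 of 15 colonocyte genes (median -0.35, 1 called), and their part in the members' ratios was not tested. Of all genes, 44.7% had a positive ratio in this comparison.

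KO and WT organoids in full medium gave no called member: 0 of 37 and 0 of all 11340 genes (0%) passed the limma test. At an unadjusted p under 0.05 there were 4 members (10.8%) and 5.35% of all genes. The 4 were Slc4a11 with -0.74 (SE 0.18, adjusted p = 0.633), Aqp9 with 0.69 (SE 0.21, adjusted p = 0.802), Slc12a4 with 0.83 (SE 0.27, adjusted p = 0.817) and Car4 with -0.79 (SE 0.26, adjusted p = 0.836). Aqp9 was above background in 3 of 4 KO and 1 of 4 WT channels, and Aqp5 in 3 of 4 KO and 2 of 4 WT channels. Both could be tested only because of their KOWI signal. Ratios were negative for 14 of 15 colonocyte markers (median -0.48) and positive for 11 of 12 goblet cell markers (median 0.40), with 0 called in either list. Of all genes, 61.6% had a positive ratio (median 0.06). Ratios ran from -0.87 for Slc26a3, with 0.56 in replicate 1 and -2.31 in replicate 2, to 0.90 for Aqp1, with 1.76 and 0.04. Both genes had 1 array left out, and with outlier spots kept the same probes gave -0.43 and 0.64. Aqp8 had -0.49 (SE 0.30), Slc9a3 -0.60 (SE 0.28), Slc26a2 -0.55 (SE 0.41), Slc9a2 -0.48 (SE 0.26), Car1 -0.49 (SE 0.20), Aqp5 0.32 (SE 0.17) and Aqp4 0.08 (SE 0.72). The same WT samples serve KO over WT and KOWI over WT, and the same KO samples serve KO over WT and KOWI over KO, so the ratios of a gene in these comparisons are not independent.

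In colon tissue 2 months after DSS, 0 of 42 tested members and 0 of 13152 genes (0%) passed the limma test between KO and WT, which had 2 mouse pairs. At an unadjusted p under 0.05 there were 15 members (35.7%) beside 14.7% of all genes, and the median absolute log2 ratio was 0.32 over the members and 0.11 over all genes. Their directions were mixed, with 20 positive and 22 negative ratios. Aqp5 was the only member more than 2-fold higher in KO in both mouse pairs (0.616% of all genes were), and none was more than 2-fold lower in both (0.129% of all genes).

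On the low side, Slc9a3 had normalised log2 intensities of 9.02 and 7.74 in the KO mice and 12.14 and 8.68 in the WT mice. KO was lower than WT within each pair, but KO mouse 1 lay above WT mouse 2. The ratios of -3.12 and -0.94 gave a mean of -2.03 (SE 0.68, adjusted p = 0.369), and 3 of the 4 KO channels were well above background. Aqp4 was at 11.20 and 11.86 in KO and at 12.17 and 12.65 in WT, with no overlap (ratio -0.88, SE 0.08, adjusted p = 0.256), while a dimmer Aqp4 probe gave -0.23. Slc26a3 was at 12.42 and 12.77 in KO and at 13.01 and 13.29 in WT, again with no overlap (ratio -0.56, SE 0.06, adjusted p = 0.256). Car4 (-0.43, SE 0.08, adjusted p = 0.276) and the intracellular aquaporin Aqp11 (-0.54, SE 0.11, adjusted p = 0.289) were negative in both pairs. With outlier spots kept, Slc9a2 had -0.49 (SE 0.06, adjusted p = 0.257) and Slc12a7 -0.30 (SE 0.08).

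On the high side, Aqp5 was at 10.66 and 10.25 in KO and at 8.82 and 9.21 in WT (ratio 1.44, SE 0.25, adjusted p = 0.275). Aqp9 was at 9.39 and 9.67 in KO and at 8.33 and 8.71 in WT (ratio 1.01, SE 0.07, adjusted p = 0.256). For both aquaporins each KO mouse was above each WT mouse. Slc26a4 (pendrin), an anion exchanger singled out after its values were seen, was at 12.65 and 13.55 in KO and at 11.01 and 13.08 in WT. The genotypes overlapped, and its ratio of 1.06 (SE 0.37, adjusted p = 0.377) was 1.64 in pair 1 and 0.47 in pair 2. The membrane enzyme Car14 was at 9.21 and 9.81 in KO and at 8.49 and 8.90 in WT (ratio 0.81, SE 0.09, adjusted p = 0.256). Slc12a4 was at 12.33 and 12.31 in KO and at 11.95 and 11.86 in WT (ratio 0.41, SE 0.06, adjusted p = 0.271). Car14 and Slc12a4 did not overlap between genotypes either. The share of all genes that separate in this way was not counted, so such separation is not support for a difference. Car3 was at 15.44 and 16.52 in KO and at 14.63 and 16.13 in WT, so that the mice of pair 2 were higher than those of pair 1 in both genotypes. Its ratio was 0.60 (SE 0.14, adjusted p = 0.311), and dimmer Car3 probes gave 1.69 and 2.53.

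**Figure D3:**
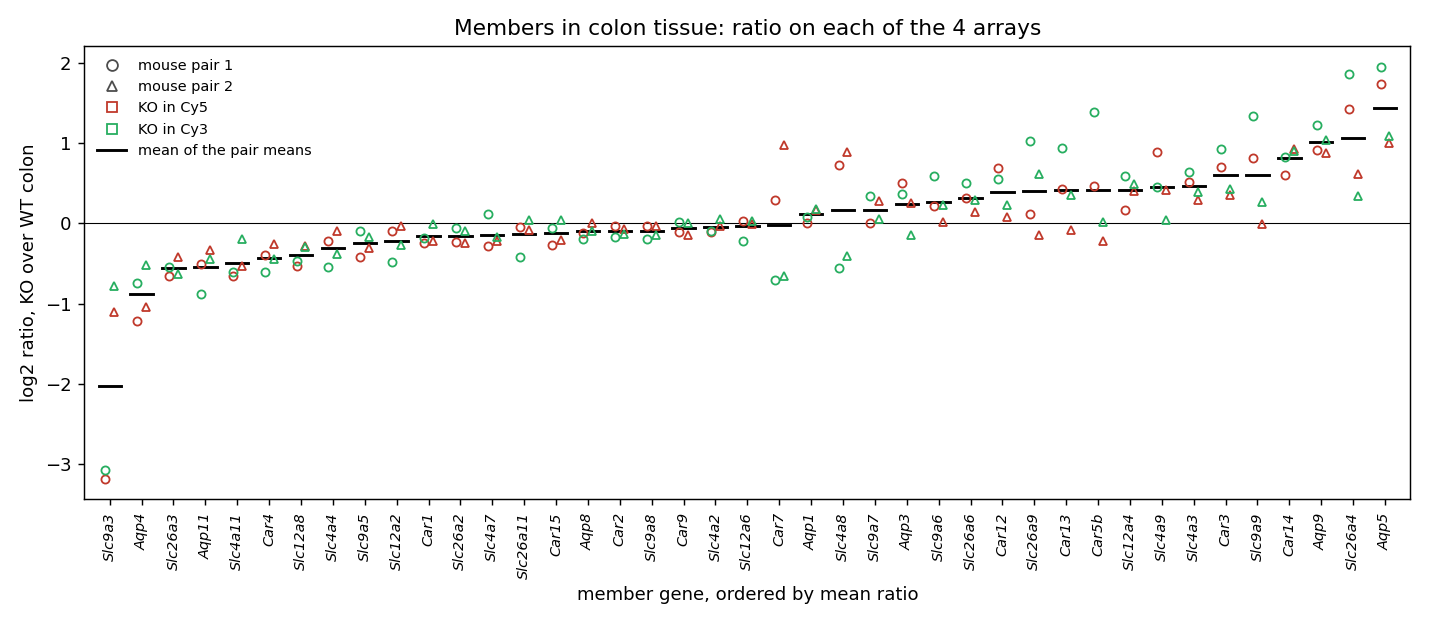
Log2 KO over WT ratio in colon tissue (y axis) of 41 tested members (x axis, ordered by their mean) on each of the 4 arrays, with circles for mouse pair 1, triangles for pair 2, colour for the dye of the KO mouse and a bar for the mean. Slc9a3 lies near -3 in pair 1 and near -1 in pair 2, while Aqp9, Car14 and Aqp5 are positive on all 4 arrays.

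Of the 10 members whose probe had a mean log2 intensity of 14 or more in tissue, Car3 had the largest ratio and the other 9 lay between -0.22 and 0.24. Among them Aqp8 had -0.10 (SE 0.07), with -0.16 and -0.04 in the pairs, Slc26a2 -0.16 (SE 0.06), Car1 -0.16 (SE 0.07), Car2 -0.10 (SE 0.06), Car9 -0.06 (SE 0.06), Slc12a2 -0.22 (SE 0.07), Aqp1 0.11 (SE 0.07) and Aqp3 0.24 (SE 0.13). Over all genes, probes of that brightness had a median absolute ratio of 0.04, against 0.15 for dimmer probes. Slc4a2 had -0.05 (SE 0.07), Slc4a4 -0.31 (SE 0.08), Slc26a6 0.32 (SE 0.09) and Car12 0.39 (SE 0.16). None of these passed. Of the 31 partner genes tested in tissue, 20 had a negative and 11 a positive ratio (median -0.11), and 0 passed.

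The tissue samples also differed in their mix of markers. Ratios were negative for 14 of 16 colonocyte markers (median -0.20), 11 of 11 general epithelial markers (median -0.13), 12 of 12 goblet cell markers and 8 of 8 stem cell markers (median -0.30). They were positive for 15 of 15 skeletal muscle markers (median 0.39), 7 of 8 adipocyte markers (median 0.50), 9 of 9 squamous epithelium markers (median 0.25) and 9 of 9 fibroblast markers (median 0.13). Of all genes tested in tissue, 48.8% had a positive ratio. The summed skeletal muscle level was 20.05 and 20.46 in the KO mice and 19.73 and 20.23 in the WT mice, and that of squamous epithelium was 20.29 and 20.22 against 19.92 and 20.14. The summed colonocyte level was 20.05 and 20.10 in KO and 20.19 in both WT mice. No gene of these lists passed the test, and their part in the members' ratios was not tested.

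The KO over WT effect of tissue was set against that of organoids, gene by gene, in a limma fit over the 10087 genes tested in both. Of 31 members, 0 passed, as did 0 of all genes, and 8 members were at an unadjusted p under 0.05, beside 1237 of the 10087 genes. The smallest adjusted p was 0.238, for Car14, whose ratio was 0.81 in tissue and -0.10 in organoids (difference 0.91, SE 0.14). In organoids its probe was above background in 4 of 4 WT but 2 of 4 KO channels. Aqp5 had 1.44 in tissue and 0.32 in organoids (difference 1.12, SE 0.30, adjusted p = 0.337), and Slc26a6 had 0.32 and -0.35 (difference 0.66, SE 0.15, adjusted p = 0.290). In organoids the Aqp5 probe was above background in 3 of 4 KO and 2 of 4 WT channels, so its ratio there rests on signals near background. Aqp9, dim in organoids of both groups, had 1.01 and 0.69 (difference 0.32, SE 0.16, adjusted p = 0.482). Slc9a3 was negative in both, with -2.03 and -0.60 (difference -1.43, SE 0.80, adjusted p = 0.530).

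**Figure D4:**
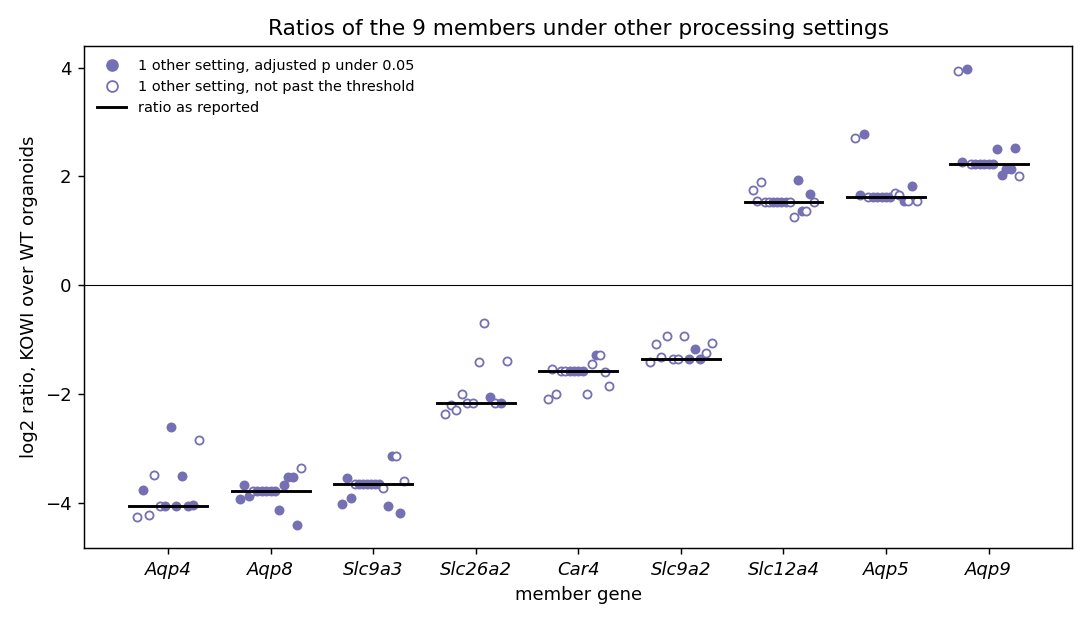
Log2 KOWI over WT ratio (y axis) of the 9 called members (x axis) under each alternative setting. Filled points had an adjusted p under 0.05, and a bar gives the ratio as reported. The settings include each sample left out, and arrays taken as independent, which counts each sample more than once. No point changes sign, Aqp8 stays between -4.42 and -3.37 and Slc9a3 between -4.20 and -3.15, and the points are filled in 2 of 12 settings for Slc26a2, 3 of 12 for Slc9a2, 5 of 15 for Car4 and 7 of 16 for Slc12a4, beside 13 of 15 for Aqp8.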

How the data were processed

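RNA from 4 mice and 6 organoid samples was hybridised to 10 arrays. Per the file headers, the deposited intensity values (mean and background signal per spot and dye) came from Agilent Feature Extraction 12.2.0.7. The deposited log10 ratios of red over green processed signals, per the file headers from the same software, served only to find the scale and direction of the value table. That table holds log2 ratios by the authors, who per the submitters' processing notes used limma, and served as an alternative. Its slope on the scanner log ratios was 0.967 to 0.999 and its array medians were -0.000351 to 0.0173, so scale and direction (red over green) are settled and the way of centring is not stated. Members and lists were chosen with earlier results of these data known. Genes named follow a rule: all called members, the members with the smallest p up to 8 per comparison, and a list of colon transporters.

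Intensities were background-corrected by normexp (offset 50) and normalised by loess within arrays (R 4.3.3, limma 3.58.1). Control and outlier spots were left out, spots averaged per probe, and a gene was taken from its brightest testable probe. Dye-swapped arrays were averaged to 2 mouse-pair ratios and tested against 0. For 1 tissue array the Cy3 source gives another replicate number than the title, and the title's was used. Organoid sample values were fitted to the loop by least squares and tested with group and replicate number as terms. Tests were limma's with eBayes and Benjamini-Hochberg adjustment over all genes, at 0.05. They were also run on values simulated from the fitted spread. Those values had no outlier spots and no missing arrays, so that run is no support for the calls. With so few arrays, their number limits the precision. Levels in tissue mice are log2 intensities of separate channels after Aquantile normalisation. Probe positions in the files are in mm9, and promoters are from RefSeq in GRCm38.p6, matched by symbol for 48 of 66 members. Alternatives covered background correction, normalisation, outlier spots, the filter on dim probes, the choice of probe, arrays as independent, the replicate term and each sample left out. Figures were drawn with matplotlib. Values of 1 member and of 1 partner gene are not reported here, and the member is left out of the figures, while the counts include both.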

Additional observations from a re-analysis of the deposited data

How the results depend on the processing

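For KOWI over WT organoids, the reported 611 genes and 9 members became 135 and 2 with the scanner software's processed signals, 227 and 5 with median centring in place of loess, 275 and 5 in the authors' value table, 6 and 0 with outlier spots kept, 262 and 4 without the filter on dim probes, and 4211 and 28 with arrays taken as independent. Requiring signal above background in every group left 411 of 9776 genes and 4 of 30 members. For KOWI over KO, the reported 49 genes and 2 members became 0 and 0 with processed signals, 4 and 0 in the authors' table, 0 and 0 with outlier spots kept, 4 and 0 without the filter, and 2544 and 20 with arrays taken as independent. Requiring signal in every group left 25 genes, and 1 member was called among probes under a log2 intensity of 14. For KO over WT organoids, 1 gene was called among those probes, and 710 genes and 3 members with arrays taken as independent. For tissue, where 0 were called, median centring called 895 genes and 6 members (Aqp5, Aqp9, Car14, Slc26a4, Slc9a3 and Aqp4), and independent arrays 601 genes and 5 members. With median centring all 6 had an SE of 0.22, where the reported fit gave 0.07 for Aqp9 and 0.68 for Slc9a3. Those 6 calls thus did not draw on each gene's own spread between the mouse pairs. Taking arrays as independent counts each sample more than once. Of the other differences the cause was not tested.

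Leaving out 1 sample at a time gave 19 to 766 genes and 0 to 8 members in KOWI over WT, 0 to 209 and 0 to 5 in KOWI over KO, 0 to 10 genes and 0 members in organoid KO over WT, and 0 genes in tissue. In KOWI over WT, 19 genes and 0 members were called without KOWI replicate 2, 72 and 2 without KO replicate 2, 56 and 3 without WT replicate 1 and 105 and 4 without WT replicate 2. In KOWI over KO, 0 genes were called without KO replicate 2 or KOWI replicate 2, and 209 genes and 5 members without WT replicate 2. With 1 sample in a group, that sample was assumed to vary like the others.

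The organoid samples share only a replicate number, which is also the dye: correlations of replicate differences across genes were 0.198 for WT and KO, 0.17 for WT and KOWI and -0.00953 for KO and KOWI. Without the replicate block, 438 genes and 7 members were called in KOWI over WT and 40 and 2 in KOWI over KO. Over the settings tried, KOWI over WT ratios ranged on the log2 scale from 2.00 to 3.98 for Aqp9, 1.54 to 2.78 for Aqp5, -4.26 to -2.61 for Aqp4 and -2.37 to -0.69 for Slc26a2.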
